A study of Mus musculus with 18 samples.

Results

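The 3 Gadd45 genes (Gadd45a, Gadd45b and Gadd45g) were followed together with Nr4a1, Ddit3 and Tia1 in mouse dendritic cells exposed to lipopolysaccharide (LPS), an outer membrane molecule of Gram-negative bacteria that TLR4 detects with the help of CD14. The members were the genes that the study links to death controlled by NFAT, a calcium-activated transcription factor, with the other Gadd45 genes. They were found as the probe sets annotated to 1 of these 6 genes alone, which gave 10 probe sets among 20393 with a single gene, and 6 of 12394 genes. Where a gene had several probe sets, the one with the highest mean was read and the others served as a check.

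The cells were grown from bone marrow of C57BL/6 mice aged 6 to 8 weeks in medium conditioned by B16 melanoma cells that make GM-CSF, and all cultures shared that medium. The conditions were Cd14-/- cells on the C57BL/6 background (labelled CD14-deficient), wild type cells given LPS with 2 mM of the calcium chelator EGTA, and wild type cells given LPS alone. Smooth LPS was given for 2, 4, 6, 12 or 24 h, and with the unstimulated cells this makes 6 arrays per condition, 18 in all, with no repeat of any condition and time. According to the design text, using both forms of inhibition serves to single out effects of calcium flux. LPS was at 1 µg/ml in wild type cells with or without EGTA, and the labels state no dose for the CD14-deficient cells. The title of the unstimulated EGTA array names EGTA, while its protocol describes plating alone. The cells without LPS were taken 24 h after they were plated, and LPS and time since plating cannot be told apart. The deletion in Cd14-/- cells was present throughout the culture, before LPS as well as during it, and the labels do not say whether arrays came from separate mice or cultures. EGTA binds calcium outside the cell and can act in other ways than through NFAT.

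Gadd45 proteins are small acidic proteins induced by DNA damage and other stress. They bind partners such as the kinase MEKK4 (Map3k4), which feeds the p38 and JNK pathways, and PCNA, and they slow the cell cycle. Nr4a1 (Nur77) is an orphan nuclear receptor and immediate early gene that takes part in apoptosis of T cells. Ddit3 (CHOP) is the transcription factor that the integrated stress response turns on through ATF4 when translation is held back by stress of the endoplasmic reticulum or by lack of amino acids. Tia1 is an RNA-binding protein that forms stress granules and represses translation of mRNAs with AU-rich elements, such as that of TNF. In dendritic cells, LPS drives maturation.

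Promoters are shown for the members that moved apart within the family, and for Nr4a1, the immediate early gene. They come from RefSeq on GRCm38.p6 and run from 250 bases before to 50 bases after the gene start, and each of the 6 members matched 1 window of 300 bases. Capitals mark 6 motifs, searched on both strands in these letters: the NFAT core GGAAA, the octamer motif ATTTGCAT, the CRE half-site TGACG, the box CCAAT, the TATA element spelled TATAAA and the CRE-like element TGCGTCA known from the Nr4a1 promoter. The letters TGCGTCA hold the CRE half-site on the other strand, so these overlap.

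Gadd45a promoter, chr6:67037358-67037657, minus strand: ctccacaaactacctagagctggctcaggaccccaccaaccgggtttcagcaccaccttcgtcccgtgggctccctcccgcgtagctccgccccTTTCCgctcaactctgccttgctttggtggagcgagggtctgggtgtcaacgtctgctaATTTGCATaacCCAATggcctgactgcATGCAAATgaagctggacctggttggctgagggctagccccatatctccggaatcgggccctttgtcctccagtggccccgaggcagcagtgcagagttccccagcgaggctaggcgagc

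Gadd45b promoter, chr10:80929841-80930140, plus strand: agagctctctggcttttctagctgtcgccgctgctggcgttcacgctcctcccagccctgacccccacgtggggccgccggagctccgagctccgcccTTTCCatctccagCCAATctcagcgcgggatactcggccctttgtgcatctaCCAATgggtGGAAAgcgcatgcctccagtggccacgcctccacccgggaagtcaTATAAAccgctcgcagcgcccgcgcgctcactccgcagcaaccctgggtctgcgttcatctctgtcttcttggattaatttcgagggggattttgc

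Gadd45g promoter, chr13:51846425-51846724, plus strand: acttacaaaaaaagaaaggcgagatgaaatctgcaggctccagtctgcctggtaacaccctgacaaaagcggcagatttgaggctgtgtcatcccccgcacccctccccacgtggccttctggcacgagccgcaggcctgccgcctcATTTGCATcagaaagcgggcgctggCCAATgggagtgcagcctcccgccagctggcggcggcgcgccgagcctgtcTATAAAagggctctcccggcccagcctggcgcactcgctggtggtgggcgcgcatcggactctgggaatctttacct

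Nr4a1 promoter, chr15:101266596-101266895, plus strand: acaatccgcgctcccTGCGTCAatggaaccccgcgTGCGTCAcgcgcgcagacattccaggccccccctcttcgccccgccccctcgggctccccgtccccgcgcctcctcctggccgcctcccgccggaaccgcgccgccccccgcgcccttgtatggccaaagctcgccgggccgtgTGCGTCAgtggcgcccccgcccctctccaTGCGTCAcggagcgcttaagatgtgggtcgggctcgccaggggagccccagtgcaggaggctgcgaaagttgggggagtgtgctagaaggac

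The octamer occurred 2 times in the Gadd45a window and 1 time in that of Gadd45g, and in 1.75% of all 27025 promoter windows. Gadd45b had none. CCAAT stood in all 3 Gadd45 windows (37.9% of all windows), and TATAAA in those of Gadd45b and Gadd45g (14.2%). The Nr4a1 window held 4 copies of TGCGTCA (2.19% of all windows), an element searched for because it was known from this promoter. The same letters hold its 4 CRE half-sites (21%). The NFAT core occurred in the windows of Gadd45a, Gadd45b and Tia1 and in 61.3% of all windows. The Gadd45g, Nr4a1 and Ddit3 windows had none. These are letter matches only and say nothing of binding. The Ddit3 window (chr10:127290543-127290842, plus strand) and the Tia1 window (chr6:86403969-86404268, plus strand) are named without their letters, since of these motifs they held only 1 CCAAT and 1 NFAT core.

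The targeted gene followed the labels. Cd14 lay between 4.28 and 5.84 on the log2 scale on the 6 CD14-deficient arrays, between 12.49 and 13.03 on the EGTA arrays and between 12.66 and 13.28 on the wild type arrays. Levels in this report are log2(intensity + 16) after quantile normalisation. Median intensity ran from 77.9 to 127, and RNA integrity numbers were 9.3 to 10 except on the later EGTA arrays (8.8 at 12 h, 8.7 at 24 h). The unstimulated EGTA array correlated least with the others (median 0.93). Of 8 dendritic cell markers, among them Itgax (CD11c), 7 passed the filter, with summed intensities of 29855 to 33734 on CD14-deficient, 27308 to 31598 on EGTA and 24519 to 28183 on wild type arrays. None of the B cell, T and NK cell or B16 melanoma markers passed the filter.

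All 6 members passed the filter on low values (above the array median on at least 2 arrays). Nr4a1 was above the median on 12 of 18 arrays and Gadd45g on 16 of 18, so some of their levels lie below the middle of the array. Gadd45b was the brightest member, with a mean deposited intensity of 2779, and Nr4a1 the dimmest, with 147. These are not levels per length, so the members' levels are not ranked against each other.

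**Figure D1:**
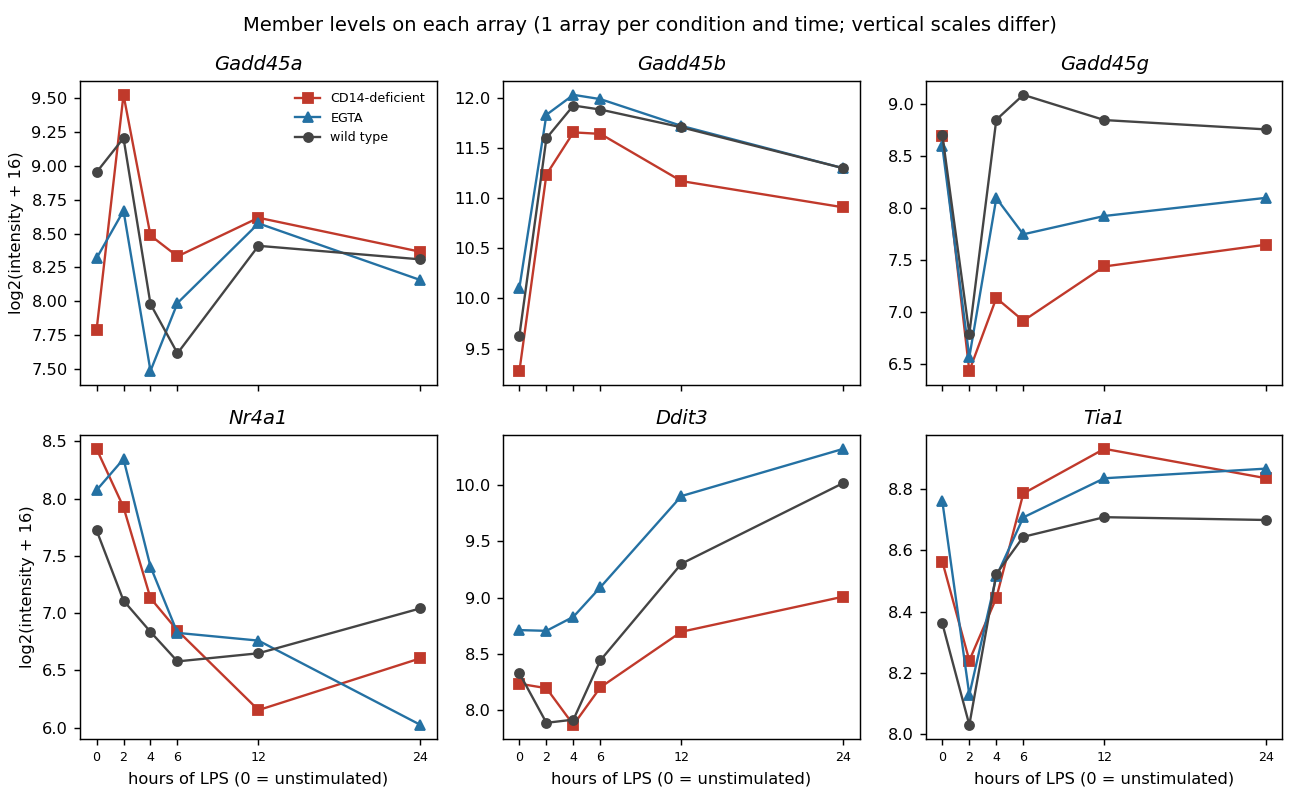
Level of each member, log2(intensity + 16), against hours of LPS (0 is unstimulated) in CD14-deficient, EGTA and wild type cells; each point is 1 array and vertical scales differ. From 4 h on, Gadd45g lay lowest in CD14-deficient cells, between in EGTA cells and highest in wild type cells, while Ddit3 was highest with EGTA at every time.

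Averaged over the 5 LPS times, Gadd45g differed more from wild type than any other member in CD14-deficient cells. With EGTA its difference (-0.78 ± 0.19) was close in size to that of Ddit3 (0.66 ± 0.14), and their order was not tested. Gadd45g fell within 2 h of LPS in all 3 conditions. It then returned to about its unstimulated level in wild type cells, and stayed below it in cells without CD14 and in cells with EGTA. On the CD14-deficient arrays Gadd45g read 8.69 before LPS, then 6.43, 7.13, 6.92, 7.44 and 7.65 after 2, 4, 6, 12 and 24 h. With EGTA it was at 8.60 without LPS and at 6.57, 8.10, 7.75, 7.93 and 8.10 after LPS. In wild type cells it was at 8.70 without LPS and at 6.79, 8.85, 9.09, 8.85 and 8.76 after LPS. The unstimulated arrays lay within 0.11 of each other. At 2 h all 3 conditions were low, and from 4 to 24 h the conditions did not overlap. With the 2 h arrays included, the ranges of the conditions overlapped. The gap between the inhibited conditions was thin, from 7.65 (CD14-deficient, 24 h) to 7.75 (EGTA, 6 h). How many other genes separated in this way was not counted. Over the LPS times 28.3% of all tested genes were called between CD14-deficient and wild type cells, and 13% between EGTA and wild type cells.

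Over the 5 LPS times, Gadd45g was 2.56-fold lower in CD14-deficient than in wild type cells (log2 difference -1.35 ± 0.19, limma adjusted p = 2.3e-04, lower at 5 of 5 times). With EGTA it was 1.72-fold lower than in wild type (-0.78 ± 0.19, adjusted p = 0.016, 5 of 5 times). CD14-deficient cells lay 1.49-fold below EGTA cells (-0.57 ± 0.19, adjusted p = 0.0333, 5 of 5 times). Each ± is the fit's standard error, with the 5 times serving as replicates. The first and second of these comparisons share the wild type arrays. An exact sign-flip test over 5 times cannot go below 0.0625, the value found for all 3. Leaving out 1 array or time kept the CD14-deficient call in 20 of 20 cases. The EGTA call was lost without the EGTA arrays of lower RNA integrity at 12 and 24 h (-0.74, adjusted p = 0.107). It was also lost in 7 of 20, without 4, 6 or 12 h, wild type at 4 or 12 h, or EGTA at 6 or 12 h (differences of -0.79 to -0.64, adjusted p up to 0.0889). The call between the inhibited conditions was lost in 12 of 20, namely without any of 4, 6, 12 or 24 h, without any of the 5 EGTA arrays, or without CD14-deficient cells at 4, 6 or 12 h (-0.61 to -0.44).

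At single times, Gadd45g in CD14-deficient minus wild type cells was -0.36, -1.72, -2.18, -1.41 and -1.11 from 2 to 24 h, and EGTA minus wild type was -0.23, -0.76, -1.34, -0.92 and -0.66. Both differences were smallest at 2 h and largest at 6 h. Without LPS they were -0.01 and -0.11. Whether LPS induction differed between the conditions was tested as an interaction, and Gadd45g did not pass (-1.34 ± 0.45 for CD14-deficient cells, adjusted p = 0.465, and -0.67 ± 0.45 for EGTA, adjusted p = 0.523). In these bulk samples fewer cells making a transcript and less transcript per cell cannot be told apart.

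Gadd45b, the family member most tied to NF-kB signalling, rose strongly in all conditions and was a little lower without CD14. CD14-deficient cells held 9.28 before LPS and 11.23, 11.65, 11.64, 11.17 and 10.91 after LPS. With EGTA the levels were 10.11 and then 11.83, 12.03, 11.99, 11.72 and 11.30. In wild type cells they were 9.63 and then 11.60, 11.92, 11.88, 11.71 and 11.30. The peak came at 4 h in each condition, and at 2 h in each with the probe set 1449773_s_at. With the probe set used, every LPS level lay above every unstimulated level. How many other genes had that order was not counted, and 26.5% of all genes rose averaged over the LPS times. With the dim probe set 1420197_at, wild type cells at 24 h lay below their unstimulated level (-0.09).

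Averaged over the 5 times, LPS raised Gadd45b 3.78-fold (1.92 ± 0.07, adjusted p = 6.9e-12). CD14-deficient cells were 1.28-fold below wild type cells (-0.36 ± 0.05, adjusted p = 4.1e-04, 5 of 5 times) and 1.37-fold below EGTA cells (-0.45 ± 0.05, adjusted p = 5.8e-05, 5 of 5 times). Both calls held in 20 of 20 leave-one-out fits. The difference was present without LPS too, at -0.35 against wild type. EGTA minus wild type was 0.09 ± 0.05 and did not pass (adjusted p = 0.296).

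The other probe sets of Gadd45b did not all follow this. The bright probe set 1449773_s_at correlated with the one used (r = 0.94 over 18 arrays). It gave -0.22 for CD14-deficient minus wild type, 0.31 for EGTA minus wild type (adjusted p = 0.0023) and -0.53 between the inhibited conditions. With it the EGTA cells were above wild type by 1.33 without LPS, and the induction by LPS was smaller with EGTA (-1.02 ± 0.13, adjusted p = 0.0032). That last difference was not called with 1450971_at (-0.38 ± 0.13, adjusted p = 0.162 in the fit with the probe sets). The dim probe set 1420197_at differed by 0.06 and 0.00 in the comparisons of CD14-deficient cells with wild type and with EGTA cells.

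Gadd45a, the p53 target among the 3, was highest at 2 h in each condition. Its rise over the unstimulated array was largest in CD14-deficient cells, whose unstimulated level was the lowest. The difference in induction from wild type cells did not pass. At 2 h Gadd45a lay above its unstimulated level by 1.74 in CD14-deficient cells, by 0.35 with EGTA and by 0.25 in wild type cells. The CD14-deficient arrays gave 7.78 before LPS and 9.53, 8.49, 8.33, 8.62 and 8.37 after LPS. With EGTA it was at 8.32 and then at 8.67, 7.48, 7.99, 8.58 and 8.16. In wild type cells it was at 8.95 and then at 9.21, 7.98, 7.61, 8.41 and 8.31. At 12 and 24 h the 3 conditions lay within 0.21 of each other. Without LPS the CD14-deficient array lay 1.17 below the wild type array.

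Under LPS, Gadd45a was higher in CD14-deficient than in EGTA cells (0.49 ± 0.14, adjusted p = 0.0182, 5 of 5 times). It did not pass against wild type, either in CD14-deficient cells (0.36 ± 0.14, adjusted p = 0.0697, 5 of 5 times) or with EGTA (-0.13 ± 0.14, adjusted p = 0.602). The call between the inhibited conditions was lost in 6 of 20 leave-one-out fits, without 2 h, without 4 h, without EGTA at 2 or 4 h, or without CD14-deficient cells at 4 or 6 h (0.36 to 0.46). Without the CD14-deficient array at 24 h, the difference from wild type passed (0.44, adjusted p = 0.0467). The induction of Gadd45a in CD14-deficient cells exceeded that in wild type cells by 1.53 ± 0.34, with an unadjusted p of 6.1e-04 that did not pass (adjusted p = 0.156). That value rests on the unstimulated arrays, 1 per condition.

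**Figure D2:**
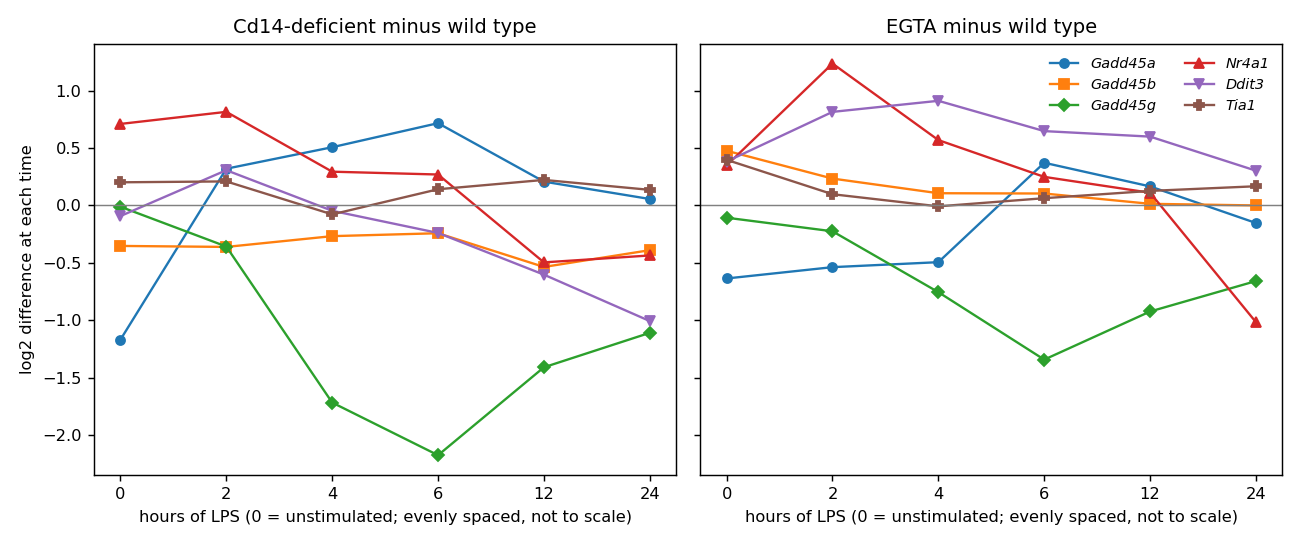
Log2 difference of each member at each time, CD14-deficient minus wild type (left) and EGTA minus wild type (right), from 1 array per condition and time; the hours are evenly spaced. Gadd45g reached -2.18 and -1.34 at 6 h, and Ddit3 lay above wild type with EGTA at all 5 LPS times.

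Among the genes of the Gadd45 partner list (9 of 10 on the array tested), the kinases that Gadd45 binds and its cell cycle partners, 1 was higher and 1 lower in CD14-deficient than in wild type cells, where 16.2% and 12.1% of all genes were. These were the mitotic kinase Cdk1 (0.45 ± 0.11, adjusted p = 0.008) and the JNK kinase Mapk8 (-0.39 ± 0.11, adjusted p = 0.0174). With EGTA only the p38 kinase Mapk14 was called, at 0.49 (adjusted p = 0.0085), where 7.05% of all genes were higher and 5.91% lower. The medians of the list were -0.01 for both comparisons, beside 0.03 and 0.01 over all genes. Averaged over the LPS times 3 rose and 5 fell, where 26.5% of all genes rose and 33.7% fell, with Cdk1 at -1.15 and the clamp protein Pcna at -0.51.

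Of 12 tested p53 target genes, 4 were higher and 1 lower in CD14-deficient than in wild type cells (16.2% and 12.1% of all genes), with a median of 0.01. The ubiquitin ligase gene Mdm2, which restrains p53, was lower (-0.83 ± 0.14, adjusted p = 0.001). The cell cycle inhibitor Btg2 was higher (0.37, adjusted p = 0.0055). With EGTA 3 were higher and 1 lower (7.05% and 5.91% of all genes, median 0.29), with Mdm2 again at -0.80 (adjusted p = 0.0033), Ccng1 at 0.49 (adjusted p = 0.0012) and the sestrin Sesn1 at 0.67 (adjusted p = 0.0058). The base excision and DNA demethylation list had 4 genes on the array, of which Apex1 alone was tested. Apex1, an endonuclease of base excision repair, was higher in CD14-deficient than in wild type cells (0.41 ± 0.08, adjusted p = 0.0027).

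Nr4a1 was lower from 4 h of LPS on than in unstimulated cells, and did not pass at 2 h (-0.28 ± 0.30, adjusted p = 0.48). Levels in CD14-deficient cells were 8.43 before LPS and 7.92, 7.13, 6.85, 6.15 and 6.61 after LPS. With EGTA it was at 8.07 and then at 8.35, 7.41, 6.83, 6.76 and 6.02. In wild type cells it was at 7.72 and then at 7.11, 6.84, 6.58, 6.65 and 7.04. Against wild type, the difference at 2 h was 0.82 for CD14-deficient and 1.24 for EGTA cells, and at 24 h it was -0.44 and -1.02.

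Averaged over the times, Nr4a1 fell with LPS by 1.13 ± 0.23 (adjusted p = 5.7e-04, 2.19-fold). None of the comparisons between conditions passed, with 0.09 ± 0.24 for CD14-deficient minus wild type (adjusted p = 0.812), 0.23 ± 0.24 for EGTA minus wild type (adjusted p = 0.581) and -0.14 ± 0.24 between the inhibited conditions (adjusted p = 0.695). The intervals run from -0.45 to 0.63 and from -0.31 to 0.77 for the first and second. Whether the condition difference changed between early (2 to 6 h) and late (12 and 24 h) times was tested as an interaction. It gave -0.93 ± 0.37 for CD14-deficient cells (adjusted p = 0.326) and -1.14 ± 0.37 for EGTA (adjusted p = 0.255), and neither passed.

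Of its relatives and the other immediate early genes (9 of 11 on the array tested), none passed in CD14-deficient against wild type cells, where 16.2% of all genes were higher and 12.1% lower. Egr1 alone was higher with EGTA than in wild type (0.59 ± 0.15, adjusted p = 0.0215), where 7.05% of all genes were higher and 5.91% lower. Between the inhibited conditions, Egr1 was lower (-0.56, adjusted p = 0.0139) and Ier2 higher (0.30, adjusted p = 0.0435) in CD14-deficient cells, where 13.8% and 15.8% of all genes were. Averaged over the LPS times 1 rose and 6 fell, where 26.5% and 33.7% of all genes did. Nr4a2, the closest relative tested, fell by 1.12 ± 0.15, the AP-1 subunit Fos by 2.37 ± 0.11 and Fosb by 3.79 ± 0.24.

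Ddit3 rose late in LPS and was higher with EGTA at every time. Ddit3 in CD14-deficient cells measured 8.24 before LPS and 8.20, 7.87, 8.20, 8.70 and 9.01 after LPS. With EGTA it was at 8.71 and then at 8.71, 8.83, 9.09, 9.90 and 10.32. In wild type cells it was at 8.33 and then at 7.89, 7.92, 8.44, 9.30 and 10.02. At each of the 6 times the EGTA array was the highest, and how many other genes had that order was not counted. At 24 h CD14-deficient minus wild type was -1.01.

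Over the 5 times, Ddit3 was 1.58-fold higher with EGTA than in wild type (0.66 ± 0.14, adjusted p = 0.0091, 5 of 5 times). CD14-deficient cells lay 1.96-fold below EGTA cells (-0.97 ± 0.14, adjusted p = 2.6e-04, 5 of 5 times). The difference of CD14-deficient and wild type cells did not pass (-0.32 ± 0.14, adjusted p = 0.107, lower at 4 of 5 times). It passed without 2 h, without the wild type array at 2 h, or without the CD14-deficient array at 2 h (-0.47 to -0.42, adjusted p from 0.0146 to 0.0488). The EGTA call was lost without 4 h (0.59, adjusted p = 0.0562) and without 6 h (0.66, adjusted p = 0.0521), and without the EGTA arrays at 12 and 24 h of lower RNA integrity (0.63, adjusted p = 0.0733). The EGTA cells were above wild type by 0.38 without LPS too. Between early and late times, the difference of CD14-deficient and wild type cells changed by -0.81 ± 0.18, which did not pass (adjusted p = 0.0992, unadjusted p = 8.7e-04).

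The integrated stress response list holds genes of the ATF4 pathway, to which Ddit3 belongs, and of the unfolded protein response. Of its 19 tested genes, 10 were higher with EGTA than in wild type, 1 was lower and the others did not pass, where 7.05% of all genes were higher and 5.91% lower. The list's median was 0.38, against 0.01 for all genes. The EGTA arrays at 12 and 24 h had the lowest RNA integrity (8.8 and 8.7), whose part in this was not tested. The death gene Bcl2l11 (BIM) was at 0.85 ± 0.10 (adjusted p = 2.3e-04), the unfolded protein response factor Xbp1 at 0.47 ± 0.06 (adjusted p = 5.1e-04) and the chaperone partner Dnajb9 at 0.66 ± 0.09 (adjusted p = 7.2e-04). Chosen after their values were seen, the pseudokinase gene Trib3, a Ddit3 and ATF4 target, was at 1.33 ± 0.20 (adjusted p = 0.0013), the asparagine synthetase Asns at 1.19 ± 0.27 (adjusted p = 0.0134), the chaperone Hspa5 (BiP) at 0.38 ± 0.05 (adjusted p = 8.4e-04) and Atf4 itself at 0.46 ± 0.11 (adjusted p = 0.0182). The exception was the transcription factor Atf3, at -0.81 ± 0.07 (adjusted p = 2.0e-05).

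In CD14-deficient against wild type cells, where 16.2% and 12.1% of all genes were higher and lower, 3 of these 19 genes were higher (Xbp1, Cebpg and Eif2ak3) and 2 lower, Atf3 (-0.90 ± 0.07, adjusted p = 1.7e-06) and, named for the count, the kinase Eif2ak2 (-0.39 ± 0.13, adjusted p = 0.0439). The median was -0.03. Between the inhibited conditions 0 were higher and 11 lower in CD14-deficient cells (15.8% and 13.8% of all genes), with Trib3 at -1.64 ± 0.20 (adjusted p = 8.4e-05), Atf5 at -0.53 ± 0.07 and Hspa5 at -0.34 ± 0.05, and a median of -0.34. The list was chosen with results of these data known. LPS itself gave a mixed picture, with 5 higher and 7 lower averaged over the times (26.5% and 33.7% of all genes).

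**Figure D3:**
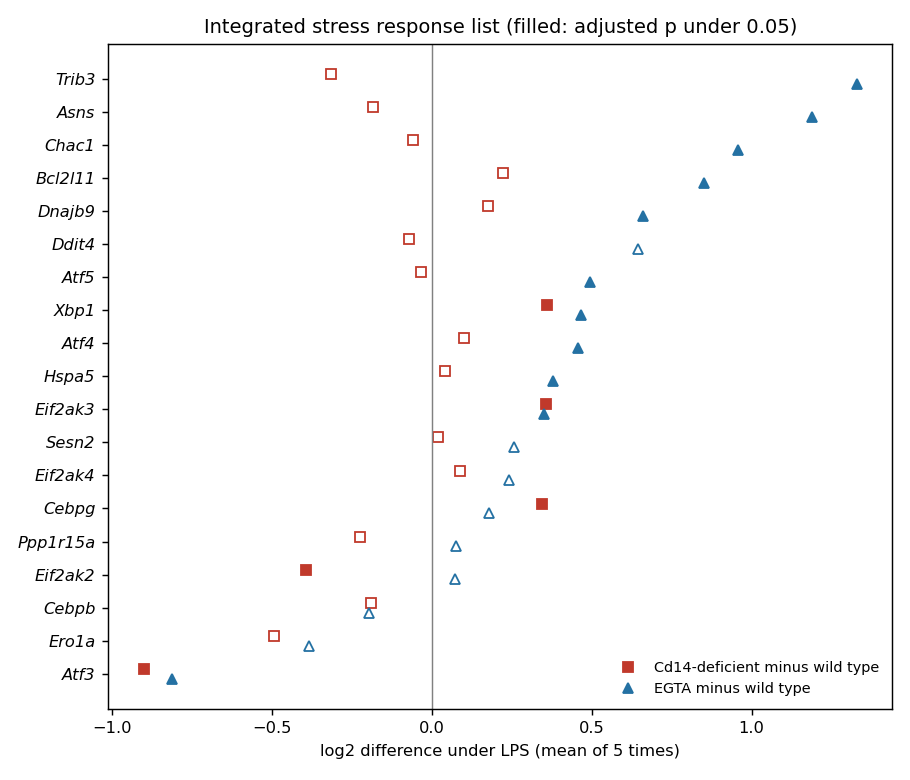
Log2 difference under LPS of the 19 tested genes of the integrated stress response list for CD14-deficient minus wild type (squares) and EGTA minus wild type (triangles), mean of 5 times; filled symbols passed the test. Most triangles lie right of 0, led by Trib3 at 1.33, while Atf3 lies left of 0 in both comparisons.

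Tia1 changed little. CD14-deficient cells showed 8.56 before LPS and 8.24, 8.44, 8.78, 8.93 and 8.83 after LPS, and with EGTA at 8.76 and then 8.13, 8.51, 8.71, 8.83 and 8.87. In wild type cells it was at 8.36 and then at 8.03, 8.52, 8.64, 8.71 and 8.70. The lowest level came at 2 h in each condition. None of the condition comparisons passed (0.13 ± 0.06, adjusted p = 0.139, for CD14-deficient and 0.09 ± 0.06, adjusted p = 0.377, for EGTA, each minus wild type, and 0.04 ± 0.06, adjusted p = 0.689, between them). The intervals of the first and second were -0.01 to 0.27 and -0.05 to 0.23.

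Tia1 fell at 2 h of LPS by 0.43 ± 0.09 (adjusted p = 0.0016) and was higher at 24 h than without LPS by 0.24 ± 0.09 (adjusted p = 0.0387), a direction that turned to -0.09 without further scaling. Its other probe sets, 1416813_at and 1416814_at, correlated with it by 0.70 and 0.76 over 18 arrays and gave 0.35 and -0.00 at 24 h. At 2 h they gave -0.19, which did not pass, and -0.53. The Tia1 call at 12 h (0.26) was lost in 2 of 20 leave-one-out fits, without the CD14-deficient array at 12 h (0.23, adjusted p = 0.0903) and without the unstimulated wild type array (0.20, adjusted p = 0.112). It was also lost in 4 of 14 other settings, among them without the unstimulated CD14-deficient array (0.24, adjusted p = 0.0701) and without further scaling (0.05). The Tia1 call at 24 h was lost in 7 of 20 leave-one-out fits (0.17 to 0.24, adjusted p up to 0.167). These were without 2, 6 or 12 h, without any of the 3 arrays at 24 h, or without the unstimulated wild type array. It was also lost without the unstimulated CD14-deficient array (0.21, adjusted p = 0.108). Of the 10 tested RNA-binding proteins related to it, 3 were higher and 1 lower in CD14-deficient than in wild type cells (16.2% and 12.1% of all genes), among them Zfp36l1, which drives decay of AU-rich mRNAs (0.73 ± 0.13, adjusted p = 0.0012), the AU-rich binding protein Hnrnpd (0.36, adjusted p = 0.002), and the stress granule protein G3bp1 (0.23, adjusted p = 0.0121). With EGTA 0 passed (limma, 7392 genes tested), where 7.05% of all genes were higher and 5.91% lower.

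The 9 genes of calcineurin and NFAT signalling are of interest beside the members, and 8 were tested. In CD14-deficient against wild type cells 2 were lower (12.1% of all genes), the calcineurin feedback inhibitor Rcan1 (-0.39 ± 0.11, adjusted p = 0.0207) and the catalytic subunit Ppp3ca (-0.29 ± 0.10, adjusted p = 0.0453). With EGTA 0 passed (Ppp3cb was at 0.21, adjusted p = 0.0643), where 7.05% of all genes were higher and 5.91% lower. Between the inhibited conditions 1 was lower, Ppp3ca (-0.29, adjusted p = 0.0439), beside 13.8% of all genes.

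**Figure D4:**
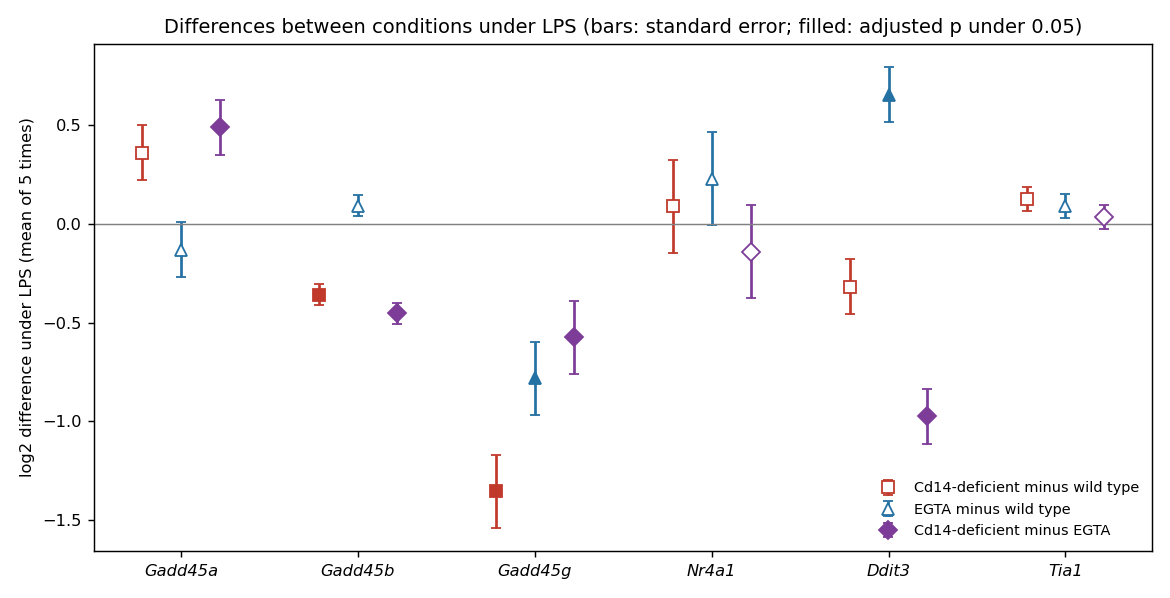
Log2 difference under LPS of each member, mean of 5 times with its standard error, for CD14-deficient minus wild type, EGTA minus wild type and CD14-deficient minus EGTA; filled symbols had an adjusted p under 0.05. Gadd45g lay below 0 in all 3 comparisons, and Ddit3 above 0 only with EGTA.

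Set against all genes, the members' counts were these. In CD14-deficient against wild type cells 0 of 6 members were higher and 2 lower (Gadd45b and Gadd45g), where 16.2% of the 7392 tested genes were higher and 12.1% lower. With EGTA against wild type 1 was higher (Ddit3) and 1 lower (Gadd45g), where 7.05% and 5.91% of genes were. Between the inhibited conditions 1 was higher (Gadd45a) and 3 lower (Gadd45b, Gadd45g and Ddit3), beside 15.8% and 13.8% of genes. With 6 genes these counts are a description.

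Markers of cell types also differed between the conditions, mostly in the comparisons of CD14-deficient cells. Over all genes, 16.2% were higher and 12.1% lower in CD14-deficient than in wild type cells, and 15.8% were higher than with EGTA. With EGTA 7.05% of all genes were higher and 5.91% lower than in wild type. In that comparison 1 of 7 dendritic cell, 1 of 7 macrophage and 0 of 6 granulocyte markers were higher, and 0 of these were lower. Of 7 tested dendritic cell markers 4 were higher and 0 lower in CD14-deficient than in wild type cells. Of 7 tested macrophage markers 0 were higher and 5 lower in CD14-deficient than in wild type cells, with Apoe at -1.64, and their summed intensity was 8453 to 23280 on the CD14-deficient arrays, 15529 to 26389 on the EGTA arrays and 14208 to 24964 on the wild type arrays. Of 6 granulocyte markers 3 were higher and 0 lower in CD14-deficient cells, with Camp at 1.53, and 5 were higher than with EGTA, and their sums ran from 1435 to 6988, 510 to 6763 and 738 to 6655 in the CD14-deficient, EGTA and wild type arrays. Of 3 mast cell markers 2 were lower in each inhibited condition than in wild type, and Fcer1a and Ms4a2 lay below the array median on all 18 arrays. The part of these cells in the results was not tested.

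Against unstimulated cells, the LPS times separated the members by direction and time. At 2 h Gadd45a (0.78 ± 0.27) and Gadd45b (1.88 ± 0.09) were higher and Gadd45g (-2.07 ± 0.29) and Tia1 (-0.43 ± 0.09) lower, where 15.7% of 7517 genes were higher and 23.7% lower. The Gadd45a call at 2 h was lost in 2 of 20 leave-one-out fits, without wild type at 2 h (0.76, adjusted p = 0.0865) and without CD14-deficient cells at 2 h (0.63, adjusted p = 0.13). It was also lost in 4 of 12 other settings, among them without the unstimulated CD14-deficient array (0.36, adjusted p = 0.21). At 4 h Gadd45b was higher and Nr4a1 lower (24.9% and 34.2% of genes) The Nr4a1 call at 4 h was lost without the unstimulated CD14-deficient array (-0.77, adjusted p = 0.0652). At 6 h Gadd45b was higher and Gadd45g and Nr4a1 lower (25.4% and 32.8%). The Gadd45g call at 6 h was lost in 4 of 20 leave-one-out fits and in 6 of 11 other settings. The former were without CD14-deficient cells at 6 h (-0.46, adjusted p = 0.214), without EGTA cells at 6 h (-0.69, adjusted p = 0.106), and without 12 h or 24 h (-0.75, adjusted p = 0.0525 and 0.0534). Among the latter were the fits without the unstimulated CD14-deficient array (-0.41, adjusted p = 0.236) and without the unstimulated EGTA array (-0.75, adjusted p = 0.0761).

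At 12 h Gadd45b (1.86), Ddit3 (0.87 ± 0.18, adjusted p = 8.3e-04) and Tia1 (0.26) were higher and Nr4a1 (-1.56 ± 0.30) lower (26.3% and 28.5% of genes). At 24 h Gadd45b was 2.82-fold higher, Ddit3 2.56-fold higher (1.36 ± 0.18, adjusted p = 1.8e-05), and Tia1 was higher, and Nr4a1 was 2.87-fold lower (25.4% and 25% of genes). The mean over the times put Gadd45b and Ddit3 (0.40 ± 0.14, adjusted p = 0.0234) above and Gadd45g (-0.91 ± 0.22, adjusted p = 0.0024) and Nr4a1 below the unstimulated level, where 26.5% and 33.7% of genes were. Gadd45g lost that call without the unstimulated CD14-deficient array (-0.57, adjusted p = 0.0524). Ddit3 lost that call without 12 h (0.28), without 24 h (0.16) and without the unstimulated wild type array (0.41, adjusted p = 0.0697).

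Comparing LPS times with each other, in the fit of all 18 arrays, 12 h against 2 h had 3 members higher (Gadd45g, Ddit3 and Tia1) and 1 lower (Nr4a1), beside 25.7% and 21.8% of genes. For 24 h against 2 h 3 were higher (the same 3) and 3 lower (Gadd45a, Gadd45b and Nr4a1), beside 28.9% and 21.9%. Gadd45g rose by 1.57 ± 0.29 between 2 and 24 h and Ddit3 by 1.52 ± 0.18, and Gadd45a fell by 0.86 ± 0.27, a call lost without CD14-deficient cells at 2 h (-0.71, adjusted p = 0.0761).

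No member passed the interaction tests. Differences in LPS induction were called for 0.146% of genes between CD14-deficient and wild type cells (11 of 7517, with 621 at an unadjusted p under 0.05) and for 1.69% between EGTA and wild type cells. Late minus early differences were called for 0.0271% and 0% of genes (2 and 0 of 7392, with 975 and 850 at an unadjusted p under 0.05).

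The genes most like each member over the 18 arrays were named by Pearson r among 7516 other tested genes, as a description; the arrays share the 3 conditions and the LPS times. Gadd45b was most like the interferon-induced sensor Ifih1 (r = 0.98), Marcksl1 (0.98) and the interferon-induced Parp14 (0.98). Tia1 was most like Setdb1 (0.94), Commd7 (0.92) and Rpap1 (0.92), and Ddit3 like Lst1 (0.93), Itm2c (0.92) and Mrpl1 (0.91). Nr4a1 was most like Aff4 (0.89), Dazap2 (0.89) and Trio (0.88), Gadd45a like Zadh2 (0.86), Abhd17c (0.84) and Efhd2 (0.79), and Gadd45g like Cpped1 (0.85), Apobec1 (0.83) and Lpxn (0.82). Among the members, Gadd45a and Gadd45g ran opposite (r = -0.60 over 18 arrays and -0.71 over the 15 LPS arrays), as did Nr4a1 and Tia1 (-0.60 and -0.80), while Gadd45b and Gadd45g correlated by -0.29 and 0.23.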

How the data were processed

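Each of the 18 Affymetrix arrays carried 22690 probe sets. The authors deposited 1 linear intensity for every probe set, made with MAS5 per the submitters' processing notes; the version is not given in the sources used here. Values were quantile-normalised, a pseudocount of 16 was added and log2 taken. Genes were named from the array's annotation, with 1 probe set per gene.

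Tests used R 4.3.3 and limma 3.58.1 (lmFit, eBayes with an intensity trend) with Benjamini-Hochberg adjustment over all genes above the array median on at least 2 fitted arrays (7392 over 15 LPS arrays, 7517 over 18), two-sided at 0.05. Conditions were compared with LPS time as a block (8 residual degrees of freedom), LPS against no LPS with condition as a block (10). No condition and time was repeated, so p-values reflect only how these single arrays scatter, and that scatter may be technical. The scripts were tested on simulated data. The members and lists were chosen with earlier results of these data known. The text names Cd14, the members, at most 4 genes of each list by smallest p in a comparison, and the 3 genes most like each member. Trib3, Asns, Hspa5 and Atf4 with EGTA, and Eif2ak2 without CD14, were named after their values were seen. Alternatives were other scalings, pseudocounts, filters, fits, probe sets and left-out arrays.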

Additional observations from a re-analysis of the deposited data

Results flagged for a closer look

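Nr4a1 differed between CD14-deficient and wild type cells in opposite directions at early and late LPS times, and the change was -0.93 as an interaction (adjusted p = 0.326), so it did not pass. Its differences were 0.82, 0.29 and 0.27 at 2, 4 and 6 h and -0.50 and -0.44 at 12 and 24 h.

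Ddit3 was flagged because it lay below its unstimulated level at 2 h and above it at 12 and 24 h in all 3 conditions. The change was 1.03 between 12 and 2 h (limma adjusted p = 3.0e-04) and 1.52 between 24 and 2 h (adjusted p = 8.1e-06). Gadd45g changed more, by 1.48 and 1.57, and 25.7% and 28.9% of all genes were higher in these contrasts. At 2 h Ddit3 was at 8.20, 8.71 and 7.89 in CD14-deficient, EGTA and wild type cells, against 8.24, 8.71 and 8.33 without LPS. Its fall at 2 h did not pass (-0.16 ± 0.18, adjusted p = 0.516) and was only -0.006 with EGTA. Tia1, with the probe set used, was also below its unstimulated level at 2 h and above it at 12 and 24 h in all 3 conditions. It differed by 0.69 between 12 and 2 h (adjusted p = 2.0e-05) and 0.67 between 24 and 2 h (adjusted p = 2.5e-05). Its other probe sets did not all show that pattern. At 2 h 1416813_at was above its unstimulated level in CD14-deficient cells (0.05). With EGTA 1416814_at stayed below its own at 12 and 24 h (-0.11 and -0.19).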

How the results depend on the processing

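Among 19 settings other than leaving out 1 array or time, the calls of Gadd45b and Gadd45g in CD14-deficient against wild type cells, and of Ddit3 and Gadd45b between the inhibited conditions, were lost without the time term and, for Gadd45b, with its dim probe set. Without the time term every condition call of a member was lost: Gadd45b -0.359 (adjusted p = 0.344) and Gadd45g -1.35 (0.116) against wild type, Gadd45g -0.782 (0.664) and Ddit3 0.656 (0.780) with EGTA, and Gadd45a 0.491 (0.473), Gadd45b -0.451 (0.210), Gadd45g -0.573 (0.551) and Ddit3 -0.974 (0.256) between the inhibited conditions. That fit called 111, 50 and 199 genes in these 3 comparisons, against 2095, 958 and 2188 with the time term. The dim Gadd45b probe set turned the sign of 2 differences, to 0.0578 and 0.00112, and the bright one gave 0.307 with EGTA. Without further scaling Gadd45a between the inhibited conditions was 0.309 and Ddit3 after LPS 0.0750, and Tia1 turned to -0.283 (mean) and -0.0876 (24 h); with 1416814_at Tia1 at 24 h was -0.00432. Gadd45g between the inhibited conditions lost its call without the filter (-0.573, adjusted p = 0.0597), and without the EGTA arrays at 12 and 24 h 3 calls were lost (Gadd45g with EGTA -0.743, Ddit3 with EGTA 0.629, Gadd45g between the inhibited conditions -0.611, and 455 genes called with EGTA). With all 18 arrays Gadd45g with EGTA was -0.669 and between the inhibited conditions -0.462, and Gadd45a 0.320. Ddit3 after LPS was 0.272 without the unstimulated EGTA array and 0.400 (adjusted p = 0.262) without a condition term, and Gadd45g -0.909 (adjusted p = 0.0590) without it and -0.573 without the unstimulated CD14-deficient array.

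The scaling moved the split of calls. Of the calls, 57.2% were higher in CD14-deficient than in wild type cells, 22.4% without further scaling and 43.3% with median centring. With EGTA 54.4% were higher, and 72% without scaling. Between the inhibited conditions 53.5%, 12.3% and 37.4% were, with the median of all genes at 0.02, -0.16 and -0.02, and after LPS 44.1%, 19.6% and 61.2%, with the median of all genes at -0.05, -0.32 and 0.09. At 2, 4, 6, 12 and 24 h the shares were 39.9%, 42.2%, 43.6%, 48% and 50.4%, without scaling 16.9%, 19.9%, 21.3%, 29.1% and 20.4%, and with centring 69.6%, 59.2%, 58.4%, 61.1% and 60.3%. At 24 against 2 h they were 56.8% and 43.4% with centring. The induction split was 27.3% (10% without scaling) for CD14-deficient cells and 52.8% for EGTA (42.1% and 90.1%), and late minus early it was 100%, 33.3% and 66.7% of few calls.

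The counts of the interaction tests moved too. For induction in CD14-deficient cells they were 20 without scaling, 5 without a filter, 2 with a strict filter and 7 without a trend. For induction with EGTA they were 38 without scaling, 769 with centring, 83 with a pseudocount of 64, 34 with a strict filter and 64 without the EGTA arrays at 12 and 24 h. Late minus early gave 9, 5, 14, 0, 1 and 1 for CD14-deficient cells (no scaling, pseudocounts 1 and 64, no filter, strict filter, no trend), 65 with late counted from 4 h (added later), and 11, 2, 2, 1 and 2 for EGTA (no scaling, centring, pseudocount 64, strict filter, robust).

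Leaving out 1 array or time gave ranges of -0.474 to -0.146 for Ddit3 and 0.255 to 0.438 for Gadd45a in CD14-deficient against wild type cells, 0.558 to 0.786 for Ddit3 and -0.976 to -0.609 for Gadd45g with EGTA, 0.363 to 0.604 for Gadd45a and -0.753 to -0.438 for Gadd45g between the inhibited conditions, and 0.162 to 0.555 for Ddit3 after LPS. Counts ran from 1394 to 2172, 367 to 1087 and 1391 to 2288 for the 3 condition comparisons, 3 to 40 and 33 to 189 for induction, and 0 to 64 and 0 to 76 for late minus early. No paired analysis by replicate number was possible because each condition and time has 1 array; the conditions were instead matched by LPS time, in the time block and the sign-flip test. The number of arrays limits the precision.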
